A study of Arabidopsis thaliana with 9 samples.

Results

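The data described here are 3 mock-treated and 3 untreated RNA-seq libraries of Arabidopsis thaliana rosette leaves, 6 of the 9 libraries of a study of the necrotrophic fungus Alternaria brassicicola. They were taken by their labels as mock treated or untreated, with no measured value used to choose them, and they address what changed in leaves that never met the fungus. Every library came from the wild-type accession Col-0, grown on soil in high humidity for 5 to 6 weeks at 22 °C with 8 h of light a day. The remaining 3 libraries came from plants sprayed with 1000000 spores per ml (strain MUCL 20297) in 0.01% Silwet L-77, a wetting agent, and harvested on day 3. Mock plants are named only as mock treated, and untreated plants only as untreated. The liquid given to mock plants, whether it held the wetting agent, and the hour at which either group was harvested are not stated in the labels. Mock treatment, handling and the time of harvest therefore cannot be told apart in any difference given below. The labels call the 3 libraries of a group biological replicates, without saying whether each held 1 plant or several.

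Whole leaves were sampled, so a lower level can come from fewer cells of a type or from less RNA per cell, which bulk libraries cannot tell apart. As background, a plant's circadian clock is a loop of factors that peak in turn. CCA1, LHY and the related RVE factors peak around dawn, PRR9, PRR7 and PRR5 follow through the day, and TOC1, LUX and ELF4 peak towards evening. Light reaches many genes through HY5 and HYH, factors held back in darkness. Touch and wounding rapidly induce calcium-linked and ethylene-linked factors, jasmonate drives wound and storage-protein genes, and salicylic acid drives genes used against biotrophic microbes.

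The promoters printed here are shown because they belong to clock genes and to HSFA7A, a heat factor that was lower in mock leaves. The dawn genes CCA1, LHY and RVE1 and the day gene PRR9 were lower in mock leaves. TOC1 and LUX were picked from the evening genes that did not pass the test. Of the 12 tested evening genes, 1 rose and 3 fell. Each is the 250 bases before the annotated start of the gene, read 5′ to 3′ on the gene's own strand from the TAIR10.1 reference with RefSeq gene models. In the CCA1 (chr2:19245341-19245590, plus strand), LHY (chr1:37872-38121, minus strand), RVE1 (chr5:5692993-5693242, minus strand) and PRR9 (chr2:19232357-19232606, plus strand) sequences, capitals mark the G-box, CACGTG. In those of TOC1 (chr5:24674713-24674962, plus strand) and LUX (chr3:17182792-17183041, plus strand), capitals mark the evening element, AAATATCT, on either strand. The LUX sequence also holds a G-box, which is left in lower case. In that of HSFA7A (chr3:19264891-19265140, plus strand), capitals mark a heat shock element, GAANNTTC.
CCA1: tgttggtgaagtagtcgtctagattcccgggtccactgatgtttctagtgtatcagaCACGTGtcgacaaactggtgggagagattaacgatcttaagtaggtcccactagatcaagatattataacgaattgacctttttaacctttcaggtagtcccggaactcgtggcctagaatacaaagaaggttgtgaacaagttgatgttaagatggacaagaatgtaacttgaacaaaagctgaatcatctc
LHY: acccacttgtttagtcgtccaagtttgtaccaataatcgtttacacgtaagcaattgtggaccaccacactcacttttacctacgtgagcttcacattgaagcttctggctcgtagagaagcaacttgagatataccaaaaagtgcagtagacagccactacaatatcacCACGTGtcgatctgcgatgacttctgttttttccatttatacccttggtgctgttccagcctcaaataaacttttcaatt
RVE1: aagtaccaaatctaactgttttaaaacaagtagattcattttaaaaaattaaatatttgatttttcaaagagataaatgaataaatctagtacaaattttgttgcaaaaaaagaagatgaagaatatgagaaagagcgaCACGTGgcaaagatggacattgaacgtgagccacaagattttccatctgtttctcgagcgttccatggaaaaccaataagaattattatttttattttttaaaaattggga
PRR9: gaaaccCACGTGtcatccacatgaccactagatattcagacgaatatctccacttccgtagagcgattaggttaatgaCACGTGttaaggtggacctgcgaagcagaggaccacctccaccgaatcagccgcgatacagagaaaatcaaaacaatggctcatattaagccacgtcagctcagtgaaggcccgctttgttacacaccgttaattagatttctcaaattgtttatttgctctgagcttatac
TOC1: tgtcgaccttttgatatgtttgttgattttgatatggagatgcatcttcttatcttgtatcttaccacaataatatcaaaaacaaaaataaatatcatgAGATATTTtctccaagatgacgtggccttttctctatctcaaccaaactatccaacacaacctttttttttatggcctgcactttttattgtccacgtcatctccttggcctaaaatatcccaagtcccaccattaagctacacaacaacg
LUX: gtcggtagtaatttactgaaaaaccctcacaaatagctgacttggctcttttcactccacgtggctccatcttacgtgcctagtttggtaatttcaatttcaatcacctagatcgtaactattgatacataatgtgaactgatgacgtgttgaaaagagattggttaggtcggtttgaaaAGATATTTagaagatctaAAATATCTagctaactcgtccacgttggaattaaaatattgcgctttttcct
HSFA7A: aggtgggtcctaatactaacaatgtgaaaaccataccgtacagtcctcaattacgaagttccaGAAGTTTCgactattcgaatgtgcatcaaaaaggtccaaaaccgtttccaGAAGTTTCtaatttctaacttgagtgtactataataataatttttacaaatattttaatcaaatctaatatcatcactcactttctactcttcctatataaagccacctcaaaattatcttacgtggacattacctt

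Motifs were searched on both strands in the 250 bases before and 50 bases after the start, and a match is a description of letters only. The G-box stood in 10 of 14 promoters of the morning clock list (71.4%), against 8.55% of the 20866 promoters of all tested genes. Among all genes called higher in mock leaves the share was 9.50%, and among those called lower 9.84%. The G-box also stood in 10 of 18 promoters of the endoplasmic reticulum folding list, 4 of 20 of the HY5 and UV-B list and 2 of 12 of the evening clock list. It was not confined to these lists, with 5 of 12 cold regulon, 7 of 17 iron and 14 of 40 light harvesting promoters. The aquaporin list held it in 0 of 17 and the wax and cuticle list in 0 of 26. The evening element stood in 6 of 12 promoters of the evening clock list, against 5.89% of all. It also stood in 6 of 13 clock output promoters and in 0 of 40 of the light harvesting list. The heat shock element stood in 9 of 19 promoters of the heat list, against 11.6% of all. The phosphate list held it in 6 of 15 and the starch list in 0 of 30. Before the start site alone, the heat list held the heat shock element in 5 promoters. There the G-box stood in 7 of 14 morning clock and 7 of 18 endoplasmic reticulum folding promoters, against 7.18% of all.

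The 6 libraries held 22713147 to 36061529 reads in genes, and the 9 libraries were fitted together with edgeR, the spread being estimated from 6 residual degrees of freedom. Of 33610 listed genes, 22019 passed the filter on low counts and were tested. Expression is given as CPM, a gene's reads per 1000000 reads of its library after scaling by the trimmed mean of M values, a level relative to all RNA of a library and not corrected for gene length. A change is the log2 of mock over untreated with its standard error (SE), and a gene is said to have risen or fallen when its Benjamini-Hochberg adjusted p in edgeR's quasi-likelihood test was under 0.05.

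Mock leaves differed from untreated leaves in many genes, mostly by small amounts. A total of 6442 genes changed, 29.3% of those tested, of which 3332 rose (15.1%) and 3110 fell (14.1%). A change of at least 2-fold was seen in 514 genes that rose (2.33%) and 576 that fell (2.62%), and one of at least 4-fold in 88 that rose (0.400%) and 50 that fell (0.227%). The 3 mock and 3 untreated values did not overlap for 9835 genes (44.7%), among them 6267 of the 6442 called genes (28.5% of all tested). The median log2 change over all tested genes was -0.01. In the authors' deposited table of the same comparison, 6088 genes passed an adjusted p of 0.05, of which 5665 were also called here. The table's header names its ratio as untreated over mock, but the signs of all 5665 match mock over untreated in the counts, and they are read that way.

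Within each group the libraries resembled each other more than the other group. Log2 CPM correlated across genes at r of 0.990 to 0.991 among mock libraries and 0.984 to 0.989 among untreated libraries, against 0.969 to 0.981 between the groups. The first principal component of the 6 libraries (54.9% of variance) set mock apart from untreated, and the second (16.8%) set untreated replicate 1 apart from the other two untreated replicates. Without untreated replicate 2, 4343 genes changed, and the genes that rose numbered 2119 in place of 3332. Without untreated replicate 1, 6644 genes changed, of which 3513 rose.

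The genes were read in 51 lists by role, 906 of whose 937 loci were tested. Each list is described by how many members rose and fell, beside the 15.1% and 14.1% of all tested genes, and by its median log2 change, beside -0.01 for all. Where only rises or only falls are given, edgeR called 0 members the other way, at most 2 members of such a list had an unadjusted p under 0.05 the other way, and any called by DESeq2 or limma-voom are given beside the list.

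**Figure D1:**
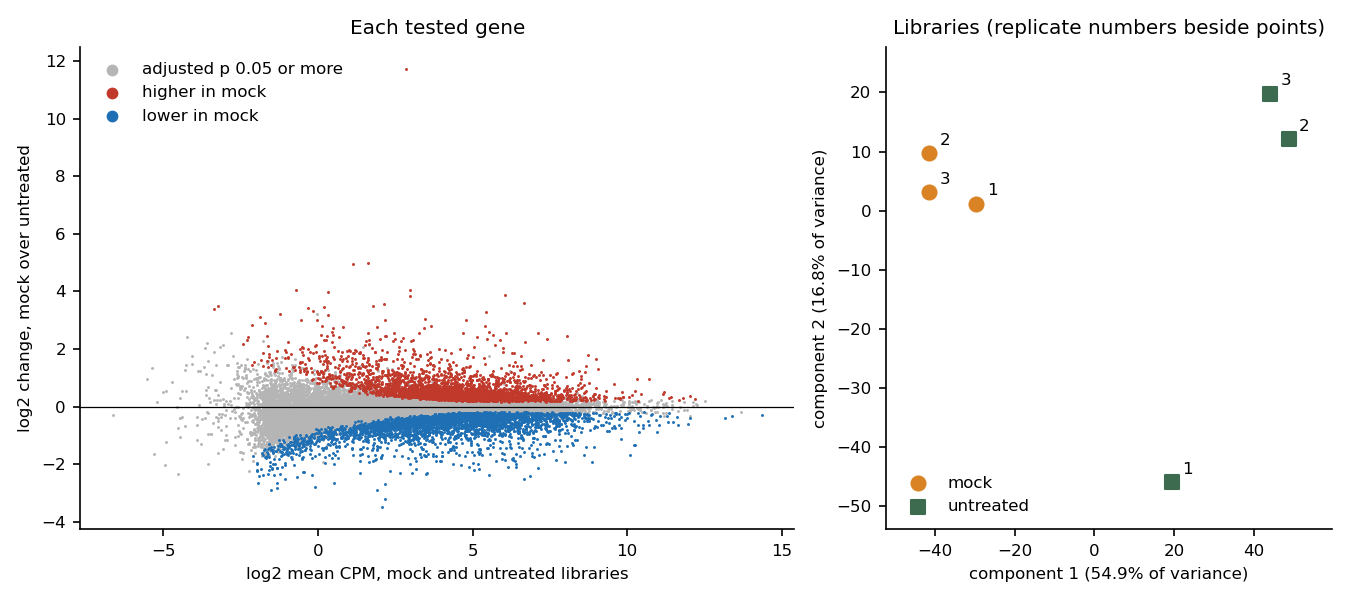
Left, each tested gene by its mean level over the mock and untreated libraries (x, log2 CPM) and its log2 change of mock over untreated (y), red where it rose, blue where it fell, grey where the adjusted p was 0.05 or more. Right, the 6 libraries on their first and second principal components. The 3 mock libraries lie together at the left, and untreated replicate 1 lies apart from untreated replicates 2 and 3. The topmost point is AT2G01010, an rRNA gene with reads in mock replicates 1 and 2 and in no other mock or untreated library, so its position is a fitted value and no measured fold.

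The largest rises were taken among called nuclear genes whose 3 mock and 3 untreated values did not overlap. A mean of at least 5 CPM over the mock and untreated libraries was also required. These rises were in a polyamine and ornithine acetyltransferase gene, a cytosolic starch enzyme, storage proteins, defence proteins and a pigment regulator. Some, such as NATA1 and FRK1, reached that mean only through their mock libraries. NATA1, which acetylates ornithine and putrescine and is a known jasmonate-responsive gene, had 4.88, 20.4 and 19 CPM in mock leaves, against 1.63, 0.492 and 0.669 CPM in untreated leaves. BAM5, a beta-amylase outside the chloroplast, had 123, 214 and 218 CPM in mock leaves, against 17.2, 13.1 and 15.6 CPM in untreated leaves. PAP1, the MYB factor that switches on anthocyanin synthesis, had 28.3, 53.3 and 66.7 CPM in mock leaves, against 6.04, 5.64 and 6.82 CPM in untreated leaves. For all of these the lowest mock library stood above the highest untreated library, as the selection required. Mock replicate 1 was the lowest of the mock libraries. The log2 changes were 4.06 ± 0.56, 3.60 ± 0.29 and 3.01 ± 0.26, with adjusted p of 2.9e-04, 5.1e-06 and 7.4e-06 in edgeR's quasi-likelihood test.

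Others of the 12 largest rises were more even among mock libraries. AT5G03350, annotated as a legume lectin family protein, had 87.3, 77.2 and 55.9 CPM in mock leaves, against 11.6, 9.7 and 10.8 CPM in untreated leaves. AT1G68600, annotated in the aluminum-activated malate transporter family, had 65.9, 79.4 and 92.7 CPM in mock leaves, against 11, 14.6 and 13.8 CPM in untreated leaves. Their log2 changes were 2.79 ± 0.16 and 2.59 ± 0.17 (adjusted p 5.9e-07 and 9.4e-07, edgeR). HEL, the hevein-like antifungal protein also called PR4, rose by 2.57, and AT1G14250, annotated as a nucleoside phosphatase of the GDA1/CD39 family, by 3.88. AT4G17470, annotated as an alpha/beta-hydrolase, rose by 3.83. AT4G12490 and EARLI1, neighbouring lipid-transfer-like genes whose near-identical reads make each value uncertain, rose by 3.04 and 2.73. VSP2 and FRK1, the remaining genes of the 12, are described with jasmonate and with pattern recognition. FUM2, a cytosolic fumarase, was chosen after values were seen because it had the lowest p among the rises. FUM2 had 382, 468 and 507 CPM in mock leaves, against 80.7, 81.1 and 88.2 CPM in untreated leaves, a log2 change of 2.44 ± 0.12.

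The 12 largest falls were more even among libraries. BT1, a BTB and TAZ domain protein known to respond to nitrate and light, had 27.8, 26.9 and 36.1 CPM in mock leaves, against 179, 169 and 172 CPM in untreated leaves. CGA1, a GATA factor that promotes chloroplast development, had 10.9, 11.4 and 13.6 CPM in mock leaves, against 52.5, 60.4 and 49.3 CPM in untreated leaves. MYB111, an activator of flavonol synthesis, had 3.02, 2.8 and 2.48 CPM in mock leaves, against 14.1, 14.6 and 12.4 CPM in untreated leaves. In all of them every mock library stood under every untreated library, as the selection required. The log2 changes were -2.51 ± 0.10, -2.18 ± 0.10 and -2.31 ± 0.15 (adjusted p 5.3e-08, 2.5e-07 and 1.2e-06, edgeR).

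Among the other largest falls, AT2G27420, annotated as a cysteine proteinase, had 56.1, 45.5 and 52.9 CPM in mock leaves, against 275, 209.8 and 184 CPM in untreated leaves. ABCI21, by its name a member of the ABC transporter family, fell by 2.36, and AT5G54130, annotated as a calcium-binding endonuclease/exonuclease/phosphatase protein, by 2.40. AT4G34550 (an F-box protein), AT3G24420 (an alpha/beta-hydrolase), AT1G24580 (a RING/U-box protein), AT5G42760 (annotated as a leucine carboxyl methyltransferase), AT3G55580 (an RCC1 family protein) and AT4G31875 (uncharacterized) had log2 changes between -2.33 and -2.15. No library of either group broke the order in any of the 12, a condition the selection itself set.

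Morning genes of the clock were lower in mock leaves as a group, and evening genes mostly were not. Of 14 tested morning clock genes, 12 fell, with a median log2 change of -1.0. CCA1, a dawn-peaking MYB factor, had 229.8, 219 and 225 CPM in mock leaves, against 655, 568 and 539 CPM in untreated leaves. LHY, its close relative, had 274, 269 and 247 CPM in mock leaves, against 744, 718 and 643 CPM in untreated leaves. RVE1, a related MYB factor that also acts on growth, had 9.54, 8.68 and 10.6 CPM in mock leaves, against 32.3, 42.8 and 42.6 CPM in untreated leaves. The groups did not come near each other, with log2 changes of -1.39 ± 0.09, -1.41 ± 0.08 and -2.03 ± 0.15 (adjusted p 8.8e-07, 5.9e-07 and 2.8e-06, edgeR).

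RVE8, which activates evening genes in the afternoon, fell by 1.44, and PRR9, a repressor that follows CCA1, fell by 1.01. PRR7, the next repressor of the series, had 154, 163 and 158 CPM in mock leaves, against 153, 138 and 143 CPM in untreated leaves, an adjusted p of 0.168. PRR5, at about 1 CPM in all 6 libraries, had a log2 change of -0.16 ± 0.25 and an adjusted p of 0.665.

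In the evening list, 1 of 12 tested genes rose and 3 fell, with a median of -0.11. TOC1, the evening repressor of CCA1, had 11.9, 10.8 and 10.8 CPM in mock leaves, against 11.3, 12.4 and 11.5 CPM in untreated leaves. LUX, a component of the evening complex, had 3.1, 2.94 and 2.7 CPM in mock leaves, against 2.93, 3.47 and 2.68 CPM in untreated leaves. Their groups overlapped, and neither passed the test (adjusted p 0.699 and 0.822, edgeR). ELF4, another component, was close to the limit of detection, with 0.388, 0.0700 and 0.279 CPM in mock leaves, against 0, 0 and 0.126 CPM in untreated leaves and an adjusted p of 0.1. GI, which links the clock to flowering, had 27.5, 33.6 and 30.3 CPM in mock leaves, against 109, 89.5 and 80.4 CPM in untreated leaves and was the largest fall of the list at -1.61 ± 0.12. ZTL, a light-sensing F-box protein, fell by 0.32, and CHE, a TCP factor that represses CCA1, rose by 0.68.

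Of 13 clock output genes 3 rose and 3 fell. CAT3, an evening-phased catalase, rose by 0.97, the RNA-binding protein GRP7 rose by 0.41, and COL2, a zinc finger protein of the CONSTANS family, fell by 0.48. The number of falls was 1 without mock replicate 2 or without untreated replicate 2.

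Genes of the HY5 and UV-B list were mostly lower in mock leaves. Of 20 tested, 15 fell and 3 rose, with a median of -1.02. HY5, the light-stabilised bZIP factor, had 12.4, 13.5 and 13.2 CPM in mock leaves, against 57, 50.8 and 45.1 CPM in untreated leaves. HYH, its homolog, had 38.4, 32.8 and 31.8 CPM in mock leaves, against 151, 129.8 and 127 CPM in untreated leaves. CRY3, a cryptochrome of the organelles, had 16.4, 13 and 14 CPM in mock leaves, against 61.7, 60.1 and 50 CPM in untreated leaves. Every mock library stood far below every untreated one, with log2 changes of -1.96 ± 0.12, -1.99 ± 0.15 and -1.98 ± 0.12 (adjusted p 8.8e-07, 2.8e-06 and 7.2e-07, edgeR). UGT84A1, a glucosyltransferase of hydroxycinnamates, fell by 1.98, at a level near 1 CPM.

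The phytochrome and shade list was mixed, with 4 rises and 5 falls among 19 genes. PIF4, a growth-promoting factor degraded in light, had 118, 146 and 151 CPM in mock leaves, against 50.1, 54.6 and 62.3 CPM in untreated leaves. Its mock values were all above the untreated ones, a log2 change of 1.31 ± 0.11 (adjusted p 7.7e-06, edgeR). PIF1, a related factor that represses chlorophyll synthesis in darkness, rose by 1.14, and FHY1, which carries phytochrome A to the nucleus, rose by 0.88. PHYB, the main red-light receptor, fell by 0.90. The falls numbered 3 without mock replicate 1 or without untreated replicate 3, and the list's median was 0.06 with all libraries and -0.15 without mock replicate 2.

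Photosynthesis genes changed little in size. Of 40 light harvesting and photosystem genes 11 rose and 2 fell, with a median of 0.16. PSAD2, a subunit of photosystem I, had 1428, 1523 and 1439 CPM in mock leaves, against 1013, 965 and 1005 CPM in untreated leaves, a log2 change of 0.56 ± 0.07. LHCB4.2, LHCB2.2 and LHCB2.3, antenna proteins of photosystem II, rose by 0.51, 0.51 and 0.45; the LHCB2 copies share sequence, so their values are uncertain one by one. The rises numbered 6 without mock replicate 2 or without untreated replicate 2, and 7 without mock replicate 3.

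In the chlorophyll synthesis list 5 of 19 genes rose and 5 fell. PORB, a light-dependent protochlorophyllide oxidoreductase, had 139, 203 and 174 CPM in mock leaves, against 61.7, 61.7 and 63.5 CPM in untreated leaves. Every mock value was above every untreated one, a log2 change of 1.46 ± 0.16 (adjusted p 4.6e-05, edgeR). PORA and PORC, of the same family, rose by 1.41 and 0.56, and CAO, which makes chlorophyll b, by 0.69. The falls of the list numbered 2 without mock replicate 2 or without untreated replicate 2, and 1 without mock replicate 3.

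Of 19 Calvin cycle genes 5 fell. The falls numbered 1 without mock replicate 2, mock replicate 3 or untreated replicate 1, 2 without mock replicate 1 or Alternaria replicate 3, and 3 without untreated replicate 2. RCA, the activase of Rubisco, had 9128, 9793 and 9639 CPM in mock leaves, against 12155, 12404 and 11286 CPM in untreated leaves, and its fall of 0.33 had an adjusted p of 0.00665 in edgeR. Of 12 photorespiration genes 3 fell, GGAT1 (a glyoxylate aminotransferase) by 0.32, and without mock replicate 2 the count was 1.

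**Figure D2:**
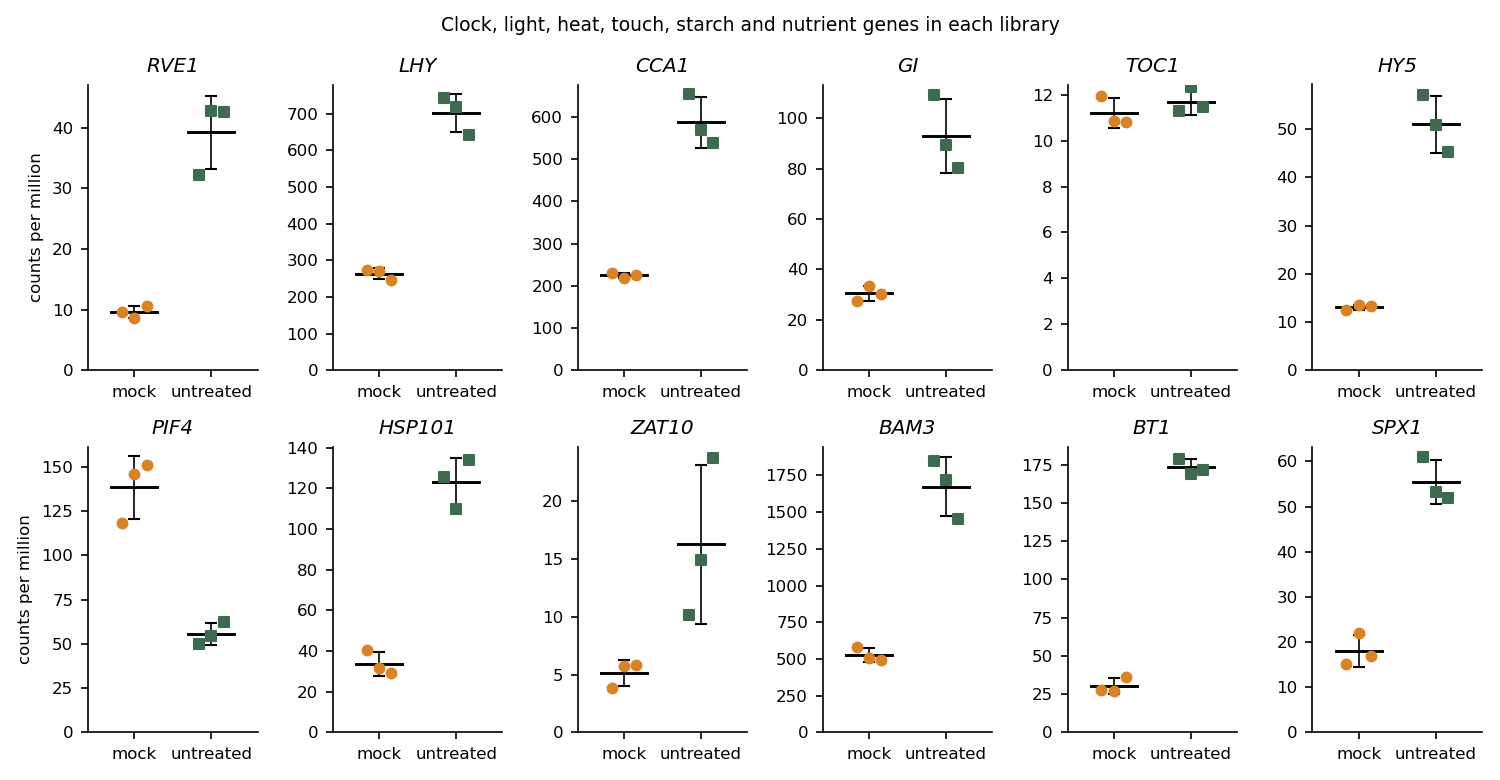
CPM of 12 genes in each library, with mock libraries (circles) left of untreated libraries (squares); bars are means and error bars 1 SD, n = 3 each. RVE1, LHY, CCA1, GI, HY5, HSP101, ZAT10, BAM3, BT1 and SPX1 were lower in all 3 mock libraries, PIF4 was higher in all 3, and the TOC1 values overlapped.

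Starch genes moved in both directions, with 13 rises and 5 falls among 30 tested. BAM3, the main beta-amylase of the chloroplast, had 582, 505 and 493 CPM in mock leaves, against 1849, 1718 and 1453 CPM in untreated leaves. GBSS1, the granule-bound starch synthase that makes amylose, had 758, 627 and 697 CPM in mock leaves, against 1958, 1710.5 and 1501 CPM in untreated leaves. BAM9, a beta-amylase homolog without known catalytic activity, had 87.7, 90.2 and 93.2 CPM in mock leaves, against 334, 321 and 315 CPM in untreated leaves. Mock values lay below untreated values in each, with log2 changes of -1.67 ± 0.11, -1.31 ± 0.11 and -1.84 ± 0.08 (adjusted p 1.1e-06, 5.9e-06 and 5.3e-08, edgeR). BAM5, given above with the largest rises, was the only 1 of the 4 list members named here to rise.

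Of 19 genes known to rise in darkness or sugar starvation, 3 rose and 5 fell, with a median of 0.05. BT2, a sugar-repressed and nitrate-responsive scaffold protein, had 1.66, 0.84 and 0.864 CPM in mock leaves, against 1.16, 3.05 and 5.15 CPM in untreated leaves. Untreated replicate 1 lay among the mock values, and the fall of 1.47 (adjusted p 0.0162, edgeR) did not pass without mock replicate 2, mock replicate 3 or untreated replicate 3 (adjusted p 0.0623 to 0.0808). DIN9, a phosphomannose isomerase, fell by 1.34, EXL4, a member of the EXORDIUM-like family, fell by 0.79, and TPS8, a class II trehalose-phosphate synthase protein, rose by 1.07. The rises numbered 6 without untreated replicate 3.

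Heat and cytosolic chaperone genes were lower in mock leaves, with 10 falls and 1 rise among 19 tested and a median of -0.67. HSP101, the disaggregase of heat tolerance, had 40.3, 31.7 and 29.2 CPM in mock leaves, against 125, 110.0 and 134 CPM in untreated leaves. HSFA7A, a heat shock factor whose promoter is printed above, had 2.61, 2.34 and 2.62 CPM in mock leaves, against 6.04, 4.72 and 5.48 CPM in untreated leaves. Groups did not overlap in either, and the log2 changes were -1.87 ± 0.12 and -1.09 ± 0.20 (adjusted p 9.9e-07 and 0.00167, edgeR). HOP3, a co-chaperone of HSP90, and FES1A, a partner of HSP70, fell by 1.25 and 1.04. The list's median was -0.42 without untreated replicate 3, when 3 genes rose.

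Rapidly touch- and wound-induced genes were lower too. Of 27 tested, 13 fell, with a median of -0.63, or -0.44 without untreated replicate 3. ERF105, an ethylene response factor, had 3.33, 3.46 and 3.4 CPM in mock leaves, against 10.1, 11.1 and 13.5 CPM in untreated leaves. ZAT10, a zinc finger repressor of stress responses, had 3.8, 5.7 and 5.85 CPM in mock leaves, against 10.1, 14.9 and 23.7 CPM in untreated leaves. Untreated replicate 3 was the highest library for both, and the groups did not overlap, with log2 changes of -1.77 ± 0.18 and -1.67 ± 0.26 (adjusted p 2.6e-05 and 6.1e-04, edgeR). CZF1 and SZF1, related CCCH zinc finger proteins, fell by 1.25 and 1.19.

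Jasmonate genes were higher in mock leaves. Of 14 synthesis genes 7 rose and 2 fell, with a median of 0.54. LOX2, the lipoxygenase of the chloroplast that opens the pathway, had 593, 795 and 907 CPM in mock leaves, against 249.7, 215 and 268 CPM in untreated leaves. AOC2, an allene oxide cyclase, had 122, 179.6 and 209.8 CPM in mock leaves, against 35, 27.5 and 45 CPM in untreated leaves. AOS, allene oxide synthase, had 277, 280.4 and 334 CPM in mock leaves, against 125, 125 and 146 CPM in untreated leaves. In all of them mock values stood well above untreated values, with log2 changes of 1.65 ± 0.14, 2.25 ± 0.19 and 1.18 ± 0.10 (adjusted p 7.5e-06, 7.7e-06 and 9.6e-06, edgeR). AOC1 rose by 1.72; the AOC copies are near-identical, so reads could be split between them.

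Of 25 jasmonate response genes 14 rose in edgeR's test, with a median of 0.69, and DESeq2 called 1 fall. VSP2, a vegetative storage protein and acid phosphatase, had 25.1, 94.9 and 114 CPM in mock leaves, against 5.94, 5.73 and 12.6 CPM in untreated leaves. CORI3, a cystine lyase induced by the jasmonate mimic coronatine, had 178, 223 and 311 CPM in mock leaves, against 45.3, 30 and 46.5 CPM in untreated leaves. Mock replicate 1 was the lowest mock library in both and still above all untreated libraries, with log2 changes of 3.28 ± 0.53 and 2.55 ± 0.23 (adjusted p 8.2e-04 and 1.1e-05, edgeR). VSP1, a near-identical neighbour of VSP2, had 4.35, 20.8 and 23.6 CPM in mock leaves, against 5.15, 1.64 and 1.84 CPM in untreated leaves, so its groups overlapped, with a log2 change of 2.54 ± 0.57 and an adjusted p of 0.00567 by edgeR, 1.52e-04 to 0.0542 over all alternatives, the highest by limma-voom. BSMT1, which methylates salicylic and benzoic acid, rose by 2.01 at levels under 2 CPM, a call that did not pass without mock replicate 2 or untreated replicate 3 (adjusted p 0.0557 to 0.0736), nor by limma-voom (adjusted p 0.0604).

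In the ethylene and defensin list 11 of 21 genes rose and 2 fell, with a median of 0.92. PDF1.2A, a plant defensin driven jointly by jasmonate and ethylene, had 3.52, 7.49 and 5.85 CPM in mock leaves, against 1.95, 1.44 and 1.17 CPM in untreated leaves, a log2 change of 1.88 ± 0.31 (adjusted p 8.3e-04, edgeR). PDF1.2B and PDF1.2C, near-identical copies, rose by 1.89 and 2.08 from levels below 1 CPM, and neither passed limma-voom. The call of PDF1.2B did not pass without mock replicate 2, mock replicate 3, untreated replicate 1 or untreated replicate 2 (adjusted p 0.0643 to 0.0827), and that of PDF1.2C did not pass without mock replicate 2, mock replicate 3, untreated replicate 1, untreated replicate 2 or untreated replicate 3 (adjusted p 0.0626 to 0.133). The rises numbered 7 without mock replicate 2 and 5 without untreated replicate 2.

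Salicylic acid genes were mostly higher in mock leaves. Of 31 tested, 21 rose, with a median of 0.90, or 1.26 without untreated replicate 1. LURP1, a defence gene of the oomycete response, had 108, 78.3 and 67.7 CPM in mock leaves, against 26, 7.67 and 12.6 CPM in untreated leaves. UGT76B1, a glucosyltransferase of isoleucic acid and salicylic acid, had 10.6, 7.59 and 5.77 CPM in mock leaves, against 1.25, 0.36 and 0.544 CPM in untreated leaves. NIMIN1, a partner of the salicylic acid receptor NPR1, had 2.3, 2.45 and 1.92 CPM in mock leaves, against 0.511, 0.0328 and 0.251 CPM in untreated leaves. Untreated replicate 1 was the highest untreated library for all of them and stayed below the mock libraries, with log2 changes of 2.48 ± 0.32, 3.55 ± 0.36 and 3.19 ± 0.40 (adjusted p 1.8e-04, 2.8e-05 and 1.3e-04, edgeR).

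FMO1, which makes the mobile signal N-hydroxypipecolic acid, rose by 2.50 at under 3 CPM (adjusted p 0.00843 by edgeR, 6.84e-05 to 0.138 over the alternatives, the highest by limma-voom). PR1, the classic marker of the pathway, had 9.4, 7.87 and 16.6 CPM in mock leaves, against 9.7, 2.79 and 4.69 CPM in untreated leaves. Its groups overlapped through untreated replicate 1, and the log2 change of 1.03 ± 0.39 had an adjusted p of 0.0653 in edgeR's test. Over the alternatives the adjusted p of PR1 ran 0.00555 to 0.277, being 0.00555 without untreated replicate 1 and 0.0237 with no filter on low counts.

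Pattern recognition genes had 9 rises and 2 falls among 21 tested. FRK1, a receptor kinase gene induced by flagellin, had 20.4, 31.1 and 13.6 CPM in mock leaves, against 6.08, 1.97 and 1.67 CPM in untreated leaves, a log2 change of 2.79 ± 0.44 (adjusted p 7.0e-04, edgeR). NHL10, another flagellin-induced gene, rose by 2.33 (adjusted p 0.0621 by limma-voom, the highest over the alternatives), PROPEP3, the precursor of a danger peptide, by 1.58, and RLP23, a receptor-like protein, by 1.18. The call of PROPEP3 did not pass without mock replicate 1, untreated replicate 2 or untreated replicate 3 (adjusted p 0.0518 to 0.0806), and that of RLP23 did not pass without mock replicate 1, mock replicate 2, untreated replicate 2 or untreated replicate 3 (adjusted p 0.0733 to 0.139), nor by DESeq2 (adjusted p 0.123). The rises numbered 4 without untreated replicate 2 and 5 without untreated replicate 3.

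In the camalexin list untreated replicate 1 was again the highest untreated library. GSTF6, a glutathione transferase of camalexin synthesis, had 120.1, 107 and 77.5 CPM in mock leaves, against 57.8, 6.19 and 11.5 CPM in untreated leaves. PAD3, the last enzyme of the pathway, had 17.2, 14 and 9.26 CPM in mock leaves, against 9.56, 0.524 and 1.42 CPM in untreated leaves. Untreated replicate 1 stood many times above untreated replicates 2 and 3 in both, and for PAD3 it reached into the mock range. The log2 changes were 2.03 ± 0.57 and 1.92 ± 0.63 (adjusted p 0.0179 and 0.0379, edgeR). The call of GSTF6 did not pass without untreated replicate 3 (adjusted p 0.0702), and that of PAD3 did not pass without mock replicate 1, mock replicate 2, untreated replicate 2 or untreated replicate 3 (adjusted p 0.082 to 0.132), nor by DESeq2 (adjusted p 0.133). CYP71A12 and GSTU4 rose by 2.55 and 2.33. Of the 8 tested genes of the list 4 rose, or 2 without untreated replicate 3, and the median of 1.14 was 1.91 without untreated replicate 1.

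Of 24 detoxification genes 8 rose in edgeR's test, and DESeq2 called 1 fall. GSTF2, a phi-class glutathione transferase, had 444, 446 and 337 CPM in mock leaves, against 221, 84.6 and 90 CPM in untreated leaves, a log2 change of 1.63 ± 0.30 (adjusted p 0.00196, edgeR). GSTF7, near-identical to GSTF6, rose by 2.13. The rises numbered 5 without mock replicate 1, mock replicate 2 or untreated replicate 3, and 4 without untreated replicate 2.

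Genes of protein folding in the endoplasmic reticulum were higher in mock leaves. Of 18 tested, 14 rose, with a median of 0.65. BIP3, the stress-induced luminal HSP70, had 12.9, 11.9 and 8.53 CPM in mock leaves, against 4.78, 0.688 and 1.38 CPM in untreated leaves. PDIL1-1, a protein disulfide isomerase, had 109, 109 and 104 CPM in mock leaves, against 63, 46.2 and 48.2 CPM in untreated leaves. Mock values were above untreated values in both, with log2 changes of 2.38 ± 0.40 and 1.03 ± 0.11 (adjusted p 0.00105 and 5.9e-05, edgeR). PDIL1-2, a close homolog, and ERDJ3B, a luminal co-chaperone, rose by 0.94 and 0.91. Of 21 proteasome subunit genes 14 rose, by small amounts, the median being 0.25. RPT2A and RPT3, ATPases of the regulatory particle, rose by 0.54 and 0.43, and the core subunits PBA1 and PAF1 by 0.45 and 0.40. The proteasome rises numbered 8 without mock replicate 3 or without untreated replicate 2.

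**Figure D3:**
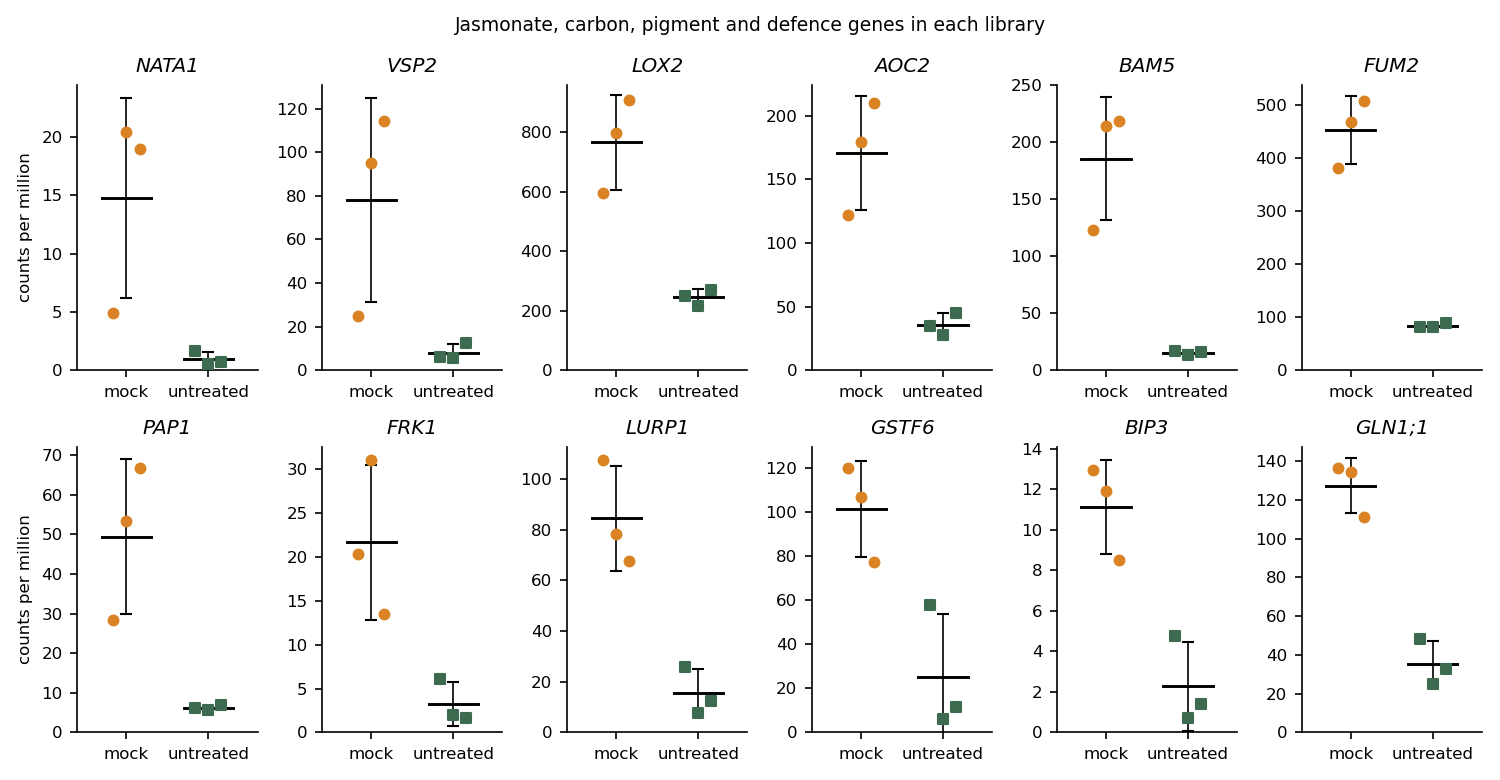
CPM of 12 genes in each library, with mock libraries (circles) left of untreated libraries (squares); bars are means and error bars 1 SD, n = 3 each. All 3 mock values lie above all 3 untreated values in every panel, a condition of selection for NATA1, VSP2, BAM5, PAP1 and FRK1. Mock replicate 1 is the lowest mock library for NATA1, VSP2, LOX2, AOC2, BAM5, FUM2 and PAP1. Untreated replicate 1 is the highest untreated library for NATA1, BAM5, FRK1, LURP1, GSTF6, BIP3 and GLN1;1.

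Flavonoid genes moved in both directions. In the list of 20, 6 rose and 7 fell. DFR, dihydroflavonol reductase on the way to anthocyanins, had 5.07, 8.43 and 8.67 CPM in mock leaves, against 2.18, 1.31 and 2.55 CPM in untreated leaves. UGT78D2, which glucosylates flavonols and anthocyanidins, had 38.1, 35 and 34.2 CPM in mock leaves, against 149.6, 126 and 118 CPM in untreated leaves. DFR was higher in every mock library and UGT78D2 lower, with log2 changes of 1.89 ± 0.33 and -1.87 ± 0.10 (adjusted p 0.00125 and 3.1e-07, edgeR). Of the regulators given above, PAP1 was higher and MYB111 lower in mock leaves. Of 18 phenylpropanoid and lignin genes 10 fell and 2 rose. 4CL3, the coumarate ligase of the flavonoid branch, fell by 1.67, MYB4, a repressor of sinapate ester synthesis, by 1.32, and PAL1 and PAL2, the entry enzymes, by 0.87 and 0.81.

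Glucosinolate lists held shares of called genes near or below those of all tested genes. Of 16 indole glucosinolate genes 2 rose and 2 fell (12.5% each, against 15.1% and 14.1% of all tested genes). GSTF9 and GSTF10, glutathione transferases, rose by 0.54 and 0.60. The rises numbered 7 without untreated replicate 1, and the falls 0 to 1 without any mock replicate, untreated replicate 2 or untreated replicate 3. Of 21 aliphatic glucosinolate genes 2 fell (9.52%) in edgeR's test, DESeq2 called 2 rises and limma-voom 1. MAM3, a chain-elongating synthase, had 24.9, 15.5 and 13.5 CPM in mock leaves, against 33.9, 38.8 and 43.3 CPM in untreated leaves, a log2 change of -1.10 ± 0.18, and CYP79F2 fell by 0.89 with overlapping groups.

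Abscisic acid genes went both ways, with 6 rises and 9 falls among 26. NCED3, the rate-limiting enzyme of abscisic acid synthesis, had 2.00, 2.45 and 1.81 CPM in mock leaves, against 4.97, 5.11 and 6.07 CPM in untreated leaves. CYP707A3, which breaks abscisic acid down, had 4.24, 1.96 and 3.35 CPM in mock leaves, against 8.73, 11.8 and 17.4 CPM in untreated leaves. Both were lower in every mock library, with log2 changes of -1.37 ± 0.17 and -1.97 ± 0.26 (adjusted p 1.2e-04 and 2.1e-04, edgeR). RD29B, a dehydration-induced protein, rose by 2.60 with mock replicate 3 highest at 4.88 CPM, and HAI2, a phosphatase of the signalling pathway, rose by 1.93.

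Of 12 cold regulon genes 6 rose and 2 fell, the rises numbering 3 without mock replicate 3 or without untreated replicate 2. COR15A, a chloroplast membrane protectant, had 142, 193 and 243 CPM in mock leaves, against 117, 84.6 and 67.4 CPM in untreated leaves, a log2 change of 1.11 ± 0.20 (adjusted p 0.00144, edgeR). KIN1, a near-copy of KIN2, rose by 1.70 at levels under 3 CPM, a call that did not pass without mock replicate 3 or untreated replicate 2 (adjusted p 0.0695 to 0.0812). CBF2, a cold-induced activator, fell by 1.79 at under 2 CPM, CBF3 had a log2 change of 0.36 ± 0.47 and an adjusted p of 0.598, and CBF1 was below the filter on low counts. In the hypoxia core list 1 of 15 genes rose and 2 fell (6.67% and 13.3%, against 15.1% and 14.1% of all tested genes). PDC1, a pyruvate decarboxylase, rose by 1.66, and LBD41, a factor of the oxygen response, fell by 0.71.

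Nutrient genes were lower in mock leaves in several lists. Of 13 sulfur genes 10 fell, with a median of -0.97. APR2, the main adenosine phosphosulfate reductase of sulfate assimilation, had 739, 623 and 654 CPM in mock leaves, against 1848, 1592 and 1648 CPM in untreated leaves. SDI1, a protein induced by sulfur deficiency, had 4.49, 5.6 and 7.75 CPM in mock leaves, against 17.7, 19 and 29.2 CPM in untreated leaves. Mock values lay below untreated values, with log2 changes of -1.34 ± 0.09 and -1.88 ± 0.24 (adjusted p 1.3e-06 and 1.7e-04, edgeR). SHM7, which is also induced by sulfur deficiency, fell by 1.71, and APR3 by 1.32.

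Of 15 phosphate starvation genes 9 fell, with a median of -0.56. SPX1, a phosphate-sensing inhibitor of the starvation response, had 15.1, 21.9 and 16.9 CPM in mock leaves, against 60.9, 53.3 and 51.8 CPM in untreated leaves. PAP17, a purple acid phosphatase, had 18.4, 28.2 and 23 CPM in mock leaves, against 103, 81 and 70.1 CPM in untreated leaves. The groups did not overlap, and the log2 changes were -1.63 ± 0.19 and -1.87 ± 0.23 (adjusted p 9.8e-05 and 1.4e-04, edgeR). GDPD1, a glycerophosphodiester phosphodiesterase, and MGD2, a galactolipid synthase, fell by 1.73 and 1.24.

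Of 19 nitrogen genes 8 fell and 1 rose, the falls numbering 4 without mock replicate 2 and 5 without mock replicate 3. NIA1, a nitrate reductase, had 61.2, 61.3 and 65.3 CPM in mock leaves, against 105, 134 and 149 CPM in untreated leaves, a log2 change of -1.05 ± 0.12 (adjusted p 8.4e-05, edgeR). LBD38, a repressor of nitrate genes, fell by 0.63, and GLN1;4, a cytosolic glutamine synthetase, rose by 1.22.

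Iron genes had 2 rises and 5 falls among 17. FER1, the iron storage protein of the chloroplast, rose by 0.99, while NAS4 (nicotianamine synthase), PYE (a regulator of the iron deficiency response) and OPT3 (a phloem iron transporter) fell by 1.41, 1.22 and 0.83. In the copper list 3 of 10 genes rose and 1 fell, all by less than 1 on the log2 scale, and the rises numbered 1 without mock replicate 3 or without untreated replicate 2.

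Genes of the leaf surface and of water transport were lower in mock leaves. Of 26 wax and cuticle genes 15 fell in edgeR's test, and DESeq2 and limma-voom each called 1 rise. WSD1, a wax ester synthase, had 0.97, 0.91 and 0.809 CPM in mock leaves, against 5.2, 7.18 and 7.53 CPM in untreated leaves. KCS1, a fatty acid elongase, had 102, 106 and 117 CPM in mock leaves, against 213, 184 and 159.7 CPM in untreated leaves. The fall of WSD1 was the largest of any list member at -2.89 ± 0.29, and that of KCS1 was -0.78 ± 0.10 (adjusted p 2.5e-05 and 1.4e-04, edgeR). CER4, an alcohol-forming reductase, and LACS2, an acyl-CoA synthetase of cutin, fell by 0.94 and 0.61. Of 17 aquaporin genes 11 fell, between 6 and 7 without mock replicate 1, mock replicate 2, mock replicate 3 or untreated replicate 3. PIP2;7, a water channel of the plasma membrane, had 248, 266 and 270.0 CPM in mock leaves, against 382, 441 and 468 CPM in untreated leaves, a log2 change of -0.72 ± 0.08. PIP2;8 and PIP2;3, of the same family, fell by 1.00 and 0.83, and PIP2;3 shares most of its sequence with a neighbouring copy.

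Dividing-cell genes were lower in mock leaves. Of 20 tested, 16 fell, with a median of -0.77. Without untreated replicate 2 the falls numbered 10 and the median was -0.57. CDC20.1, an activator of the anaphase-promoting complex, had 6.18, 5.7 and 5.88 CPM in mock leaves, against 9.56, 13.7 and 13.7 CPM in untreated leaves. HIK, a kinesin of the division plane, had 6.13, 5.67 and 4.82 CPM in mock leaves, against 9.8, 12.5 and 12.3 CPM in untreated leaves. Untreated replicate 1 was the lowest untreated library in both and still above all mock libraries, with log2 changes of -1.06 ± 0.14 and -1.06 ± 0.14 (adjusted p 2.5e-04 and 1.9e-04, edgeR). CYCA1;1 and CYCB1;1, mitotic cyclins, fell by 1.02 and 0.97.

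Wall-loosening genes held both rises and falls. Among 16 expansins 7 fell and 2 rose, and without untreated replicate 2 the falls numbered 4. EXPA11 had 23.4, 22.6 and 27.1 CPM in mock leaves, against 81.8, 66.1 and 47.6 CPM in untreated leaves, a log2 change of -1.42 ± 0.20, and EXPA15 and EXPA5 fell by 0.77 and 0.71, while EXPB1 rose by 1.29. Among 21 xyloglucan-modifying XTH genes 3 rose (14.3%) and 4 fell (19.0%), near the 15.1% and 14.1% of all tested genes. The falls numbered 8 without untreated replicate 1 and 2 without any mock replicate or without untreated replicate 3. XTH7 had 274, 257 and 325 CPM in mock leaves, against 129.5, 116 and 144 CPM in untreated leaves, a log2 change of 1.13 ± 0.12 (adjusted p 3.1e-05, edgeR). XTH31 rose by 1.16, and XTH24 fell by 0.61.

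Hormone lists of growth held rises and falls or falls alone. Of 24 auxin response genes 3 rose and 8 fell, the falls numbering 4 to 5 without any mock replicate or without untreated replicate 2. IAA2 and IAA3, repressors of auxin response, fell by 0.70 and 0.59, and GH3.5, which conjugates auxin, rose by 0.64. Of 9 cytokinin genes 3 fell in edgeR's test, with 1 rise called by DESeq2 and by limma-voom. ARR7 and ARR6, response regulators that damp the signal, fell by 0.93 and 0.92. Of 17 gibberellin genes 6 fell, led by GA2OX1, which inactivates the hormone, with 1.08, 0.735 and 1.31 CPM in mock leaves, against 2.65, 3.9 and 3.43 CPM in untreated leaves. RGL1, a repressor of the pathway, and GASA6, a response gene, fell by 0.69 and 0.73. Of 16 brassinosteroid genes 3 rose and 3 fell (18.8% each), near the 15.1% and 14.1% of all tested genes. BES1, a master factor of that hormone, had 208, 229.9 and 228 CPM in mock leaves, against 117, 103 and 119 CPM in untreated leaves, a log2 change of 0.97 ± 0.09, CPD, a synthesis enzyme, rose by 0.67, and BR6OX2, a late synthesis enzyme, fell by 0.65.

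Senescence genes had 5 rises among 16 tested. GLN1;1, a cytosolic glutamine synthetase, had 137, 134 and 111 CPM in mock leaves, against 48.4, 24.8 and 32.6 CPM in untreated leaves, a log2 change of 1.86 ± 0.19 (adjusted p 3.3e-05, edgeR). SAG13, a short-chain dehydrogenase, and PPH, pheophytinase of chlorophyll breakdown, rose by 1.67 and 0.60. SWEET15, a sugar exporter, rose by 1.70 with mock replicate 3 far above the rest at 9.54 CPM, a call that did not pass without mock replicate 3, untreated replicate 2 or untreated replicate 3 (adjusted p 0.071 to 0.218), nor by limma-voom (adjusted p 0.102). The rises numbered 8 without untreated replicate 1.

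**Figure D4:**
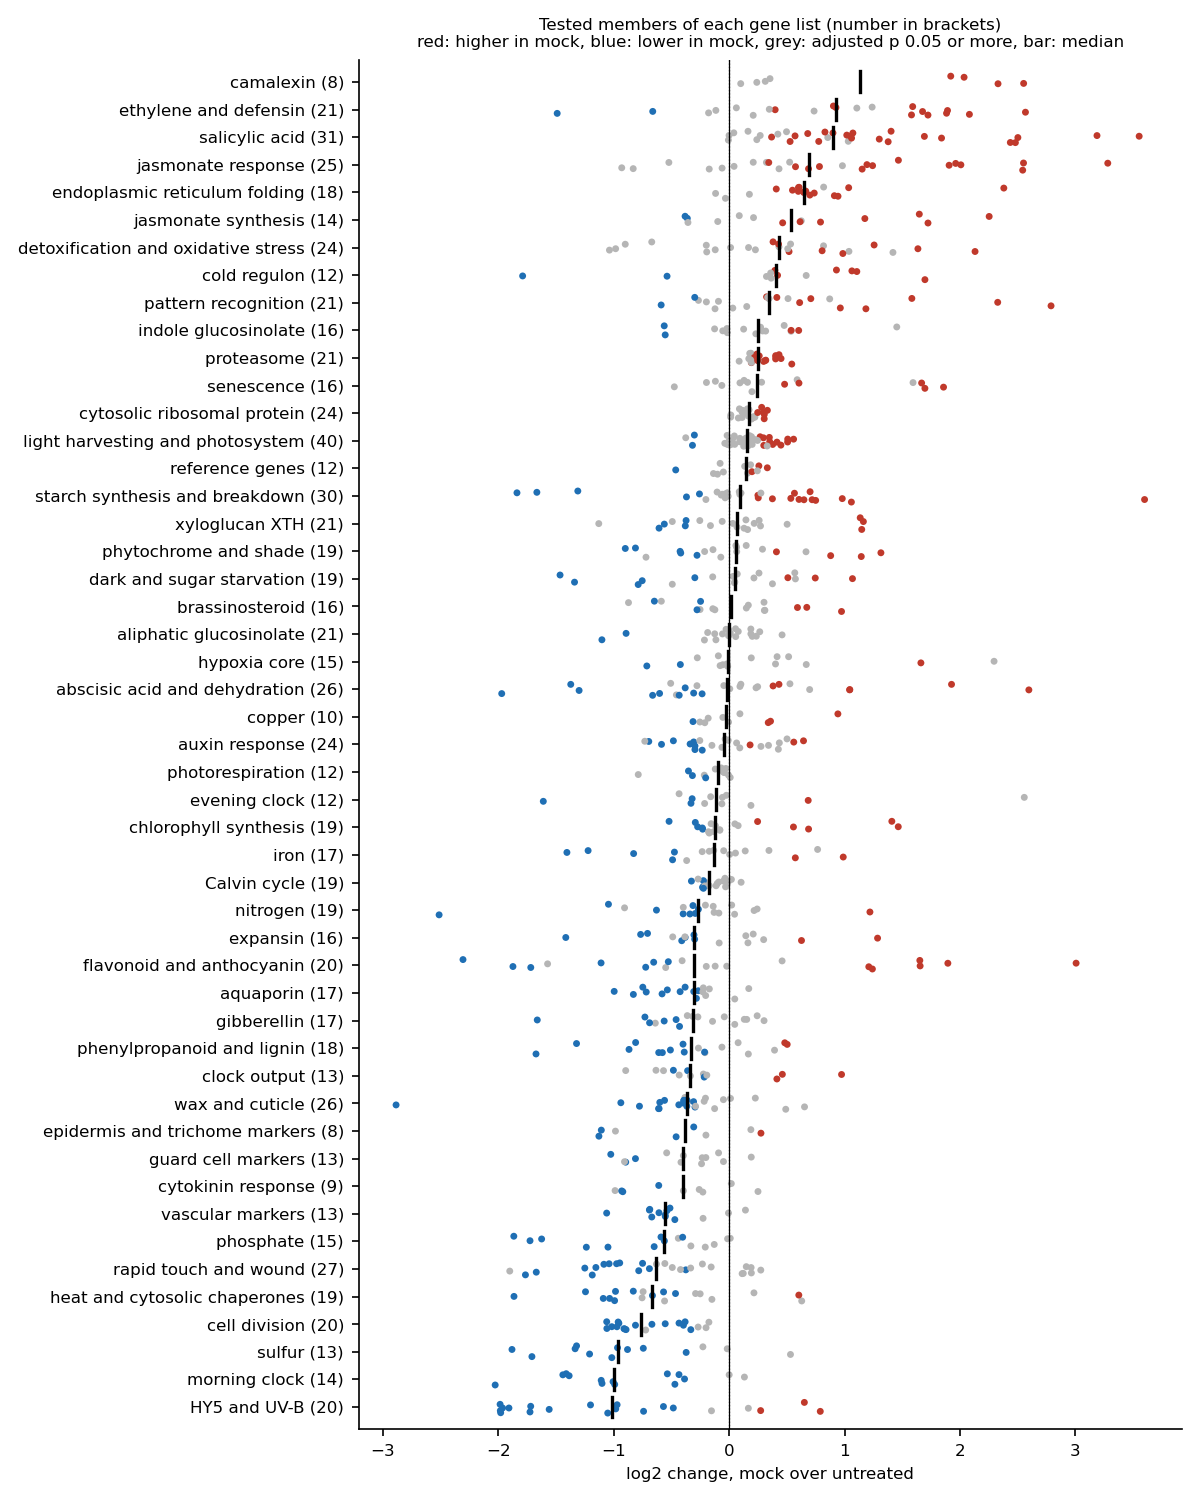
Log2 change of mock over untreated (x) for every tested member of 49 gene lists of at least 8 tested members, sorted by median (black bars), with the number tested in brackets. Red points rose, blue points fell and grey points had an adjusted p of 0.05 or more; the dotted line is the median of all tested genes. The HY5 and UV-B, morning clock and sulfur lists lie lowest, and the camalexin, ethylene and defensin, and salicylic acid lists highest.

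Markers of cell types were examined beside these lists. Of 13 vascular markers 10 fell, with a median of -0.55 and summed levels of 519 to 648 CPM in mock libraries, against 716 to 825 CPM in untreated libraries. XCP1 and XCP2, xylem proteases, and CESA7, a secondary-wall cellulose synthase, fell by 0.67, 0.69 and 0.69. Of 8 epidermis and trichome markers 4 fell and 1 rose, with summed levels of 591 to 614 CPM in mock libraries, against 779 to 835 CPM in untreated libraries. PDF1, an epidermal protein, had 95.3, 82.3 and 79.1 CPM in mock leaves, against 143, 221 and 197 CPM in untreated leaves, a log2 change of -1.13 ± 0.14, TRY, a trichome patterning factor, fell by 1.11, and FDH and ATML1, both epidermal, by 0.46 and 0.31. Of 13 guard cell markers 3 fell, 5 without untreated replicate 1, with summed levels of 1870 to 2590 CPM in mock libraries, against 2100 to 2780 CPM in untreated libraries. SPCH, of the stomatal lineage, and KAT2, a potassium channel, fell by 1.03 and 0.90. The part of cell-type makeup in the results on wax, division and water channels was not tested.

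Tissues that the label does not name were near the limit of detection. Root markers summed to 2.5 to 3.36 CPM in mock libraries, against 2.95 to 4.17 CPM in untreated libraries, 4 of 10 were tested, and 0 changed by edgeR, DESeq2 or limma-voom, or at an unadjusted p under 0.05 in edgeR. COBL9, a root hair gene, had the lowest p of them, with a log2 change of -0.86 ± 0.41 and an adjusted p of 0.133 in edgeR, 0.0393 to 0.354 over the alternatives, the lowest without mock replicate 3. Flower markers summed to 3.91 to 7.08 CPM in mock libraries, against 4.09 to 5.15 CPM in untreated libraries. AG, a floral organ factor, was the only 1 of 3 tested to rise, by 0.66 with an adjusted p of 0.0493 in edgeR, 0.0368 to 0.198 over the alternatives, and it did not pass when any library was left out except mock replicate 3.

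Housekeeping genes were not exempt. Of 12 genes used as references 3 rose and 1 fell (25.0% and 8.33%, against 15.1% and 14.1% of all tested genes). ACT2, an actin, had 822, 837 and 815 CPM in mock leaves, against 1179.8, 1101 and 1132 CPM in untreated leaves. All mock values were below all untreated values, a log2 change of -0.46 ± 0.06 (adjusted p 2.9e-04, edgeR). GAPC2, a glycolytic dehydrogenase, rose by 0.33, and the rises numbered 1 without any mock replicate or without untreated replicate 2. Of 24 cytosolic ribosomal protein genes 7 rose, 12 rises by DESeq2 and 2 to 3 without mock replicate 2, mock replicate 3 or untreated replicate 2. RPS27B, of the small subunit, rose by 0.30.

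Plastid-encoded genes took a smaller share of the reads of mock libraries. The share was 4.34%, 4.32% and 3.51% in mock libraries, against 4.66%, 5.9% and 5.97% in untreated libraries. Groups did not overlap, and untreated replicate 1 lay closest to the mock libraries. The means were 4.06% ± 0.472 in mock and 5.51% ± 0.733 in untreated libraries (SD, n = 3 each), a two-sided exact permutation p of 0.1, the smallest that 3 against 3 allows. Of 105 tested plastid genes 73 fell in edgeR's test, DESeq2 called 1 rise, and the falls numbered 86 without untreated replicate 1 and 54 without mock replicate 3 or without untreated replicate 2. Libraries were made from polyadenylated RNA. Mitochondrial genes held 0.13% ± 0.0231 of reads in mock and 0.114% ± 0.0369 in untreated libraries (SD, n = 3 each), an exact permutation p of 0.7.

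The same genes in infected leaves are given side by side, because the comparison of Alternaria with mock shares its mock libraries with the one above. Against mock, Alternaria leaves had 6489 genes higher (29.5%) and 5752 lower (26.1%). In the touch and wound list 26 of 27 genes were higher in Alternaria leaves than in mock leaves. ZAT10 averaged 35.1 ± 4.43 CPM in Alternaria leaves, 5.12 ± 1.15 CPM in mock leaves and 16.2 ± 6.88 CPM in untreated leaves (SD, n = 3 each). PAP17 averaged 125 ± 41.4 CPM in Alternaria leaves, 23.2 ± 4.91 CPM in mock leaves and 84.6 ± 16.5 CPM in untreated leaves (SD, n = 3 each), and all libraries of mock leaves were below those of both other groups. In the salicylic acid list all 31 genes tested were higher in Alternaria than in mock leaves. LURP1 averaged 986 ± 52 CPM in Alternaria leaves, 84.6 ± 20.7 CPM in mock leaves and 15.4 ± 9.47 CPM in untreated leaves (SD, n = 3 each). BAM5 averaged 47.5 ± 17.4 CPM in Alternaria leaves, 185 ± 53.9 CPM in mock leaves and 15.3 ± 2.06 CPM in untreated leaves (SD, n = 3 each), and FUM2 averaged 243 ± 34.3 CPM in Alternaria leaves, 452 ± 64.1 CPM in mock leaves and 83.3 ± 4.24 CPM in untreated leaves (SD, n = 3 each), with mock leaves highest in both. Of 14 morning clock genes 2 were higher and 8 lower in Alternaria than in mock leaves, and HY5 averaged 13.1 ± 2.44 CPM in Alternaria leaves, 13.1 ± 0.552 CPM in mock leaves and 51 ± 5.94 CPM in untreated leaves (SD, n = 3 each).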

How the data were processed

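Leaf RNA of 9 libraries was measured by poly(A)-selected RNA-seq. The authors deposited, for each library, raw read counts per gene (whole numbers, not normalized), and a table of their own comparison that holds a mean normalized count per gene (a size-factor scaled signal), a log2 fold change and p-values, per the file headers. The header of its fold-change column names untreated over mock, whereas its signs follow mock over untreated in the deposited counts, so positive values were read as higher in mock. FastQC, TopHat2 2.0.12, HTSeq and DESeq2 1.8.2 and the TAIR10 build are named in the submitters' processing notes. For HTSeq, neither version nor strand setting nor annotation release is stated in the material used, so reads of overlapping and antisense genes cannot be told apart, and near-identical copies are uncertain. Lines that name no gene, 8.84% to 11.2% of reads in the 6 libraries, were left out.

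Genes were filtered with filterByExpr (minimum count 10), scaled by TMM and tested with edgeR 4.0.16 (R 4.3.3, quasi-likelihood, groups only, all 9 libraries sharing 1 estimate of spread, biological coefficient of variation 0.107). P-values were adjusted over all 22019 tested genes, and each SE was obtained from the fitted change and the square root of its F statistic. CPM are scaled values without a prior count, and fitted changes used edgeR's default prior count. The log2 CPM behind the principal components and correlations used a prior count of 2. Alternatives used limma 3.58.1, DESeq2 1.42.0, other scaling, filters, a fold limit, a replicate block, fits with no organelle genes, and fits that drop any single library. Numpy 2.4.6, pandas 2.3.3 and matplotlib 3.10.9 were used for tables and figures, and the fits were tested on simulated data. P-values rest on the spread between 3 biological replicates per group. A count of 0 allows up to 3 reads per library.

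The members and the 51 lists (937 loci, 906 tested, 31 not, 1 locus in more than 1 list) were chosen with earlier results of these data known. Of the list names, 885 matched the TAIR10.1 annotation, 47 had another name there and 5 were entered by locus alone, and 28932 of the 33610 listed loci were found in it. Named genes were the 12 largest rises and 12 largest falls of called nuclear genes whose groups did not overlap and whose mean level reached 5 CPM, up to 4 of the largest changes of each list, and fixed clock and defence genes. List members whose call was lost in several leave-outs are in part given as counts only. FUM2 and the genes closing the text were chosen after their values were seen.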

Additional observations from a re-analysis of the deposited data

How the results depend on the processing

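A fold limit of 1.2 in edgeR's glmTreat left 2700 changed genes, 1241 higher and 1459 lower in mock. Other settings gave 6020 to 6638 changed genes, and DESeq2 (3708 higher, 2711 lower), no filter on low counts (3582 and 2693) and upper-quartile scaling (3064 and 3372) moved the split most. No gene called both in the main test and in an alternative changed direction, and the median log2 change moved by 0.0076 with RLE scaling, -0.0214 with upper-quartile scaling and at most 0.0308 in any setting, with no filter on low counts. With 1 library left out, 4343 to 6644 genes changed, 2119 to 3513 higher and 2153 to 3131 lower, the plastid share differed by -1.87 to -1.18 percentage points and the mitochondrial share by -0.00523 to 0.0297. Over all counted lines the plastid difference was -1.26 (exact permutation p 0.1). The heat shock element stood in 5 heat list promoters before the start site alone. The causes of these shifts were not tested.

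Replicate numbers are shared between the groups. Deviations of same-numbered mock and untreated libraries from their group means correlated at -0.0355, -0.0153 and -0.0342, which shows no shared deviation. With 3 libraries per group this cannot show whether same-numbered libraries were grown or handled together. With a replicate block 6020 genes changed (3145 higher, 2875 lower). Of 217 named genes, 155 kept their direction and side of the threshold in every alternative run. The block lost 9 calls, DESeq2 8, limma-voom 12, the fold limit 49, and leaving out 1 library between 4 and 33, the most without untreated replicate 2. Counts for the morning clock, HY5 and UV-B, touch and wound, sulfur, phosphate and vascular lists (falls), and for jasmonate response, salicylic acid, endoplasmic reticulum and starch lists (rises) stayed within 1.5 times of the main count without any 1 library. Genes under about 1 CPM rest on few reads, which limits their precision.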

Other observations

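These genes were chosen after their values were seen. THI2.1, a thionin induced by jasmonate, lay under the mean level required for naming and had 0.804, 4.76 and 7.19 CPM in mock leaves, against 0.232, 0.0655 and 0.126 CPM in untreated leaves, a log2 change of 4.96 (adjusted p 0.00274, edgeR). AT2G39530 had a log2 change of 3.99 and was also under that level. The largest falls of all tested genes were AT4G27360 and AT1G26790, with log2 changes of -3.49 and -3.19.

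The largest fitted rises of all rested on 1 library each. AT2G01010, an rRNA gene, had 0.222, 42.6 and 0 CPM in mock leaves, against 0 in each untreated library, and an adjusted p of 0.0392 in edgeR. U1.5 (AT1G08115), a spliceosomal RNA gene, had 17.6, 0.175 and 0.167 CPM in mock leaves, against 0.0929, 0.0328 and 0.46 CPM in untreated leaves, and an adjusted p of 0.041 in edgeR.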
